A study of Mus musculus with 12 samples.

Results

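Bmp7, Twsg1 and 8 other genes of bone morphogenetic protein (BMP) signalling were followed through the 12 libraries of a mouse RNA-seq study of the splicing factor Srsf10. The genes were taken by symbol from the count table. They were the ligands Bmp7 and Bmp4, the extracellular modulator Twsg1 and the receptors Bmpr1a and Bmpr2. With them stood the transducer Smad1, the inhibitory Smad6, and the targets Id1, Id2 and Id3. All 10 have a row among the 34102 genes of the table. They were chosen with earlier results of these libraries known, and Bmp7 and Twsg1 were placed first because they stood low in cultured progenitors labelled knockdown. Their own fold changes are therefore given as descriptions with an error and without a p-value.

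The study holds 4 groups of 3 libraries from C57BL/6 mice. Cortex labelled cKO carried Srsf10 flox/flox and Nestin-Cre, and control cortex carried the same floxed alleles without Nestin-Cre. The Nestin promoter drives Cre in neural progenitors and their descendants, and no group carried Nestin-Cre without the floxed alleles, so the transgene and the loss of Srsf10 cannot be told apart. Neural progenitor cells (NPC) in primary suspension culture were labelled SRSF10 knockdown (KD) or wild type (control), and RNA was taken 72 h after lentivirus was added at a multiplicity of 30. The labels repeat 1 infection protocol for both NPC groups and do not say which virus the control cells received. The age of the mice, any pooling of animals and the separate origin of replicates are not given in the labels either. The Y-linked gene Ddx3y was above 10 CPM in cKO replicate 3, control cortex replicates 2 and 3 and replicate 3 of both NPC groups, and below 1 CPM in the other libraries, so each group holds libraries of both sexes and cortex is unbalanced. Whether libraries of the same sex come from separate animals is not known, and the p-values measure only the spread between these libraries.

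BMPs are secreted dimers of the TGF-beta family. They bind a pair of type I and type II receptor kinases, which phosphorylate Smad1, Smad5 and Smad9, and these enter the nucleus with Smad4 and activate genes such as Id1, Id2 and Id3. Secreted proteins such as noggin, chordin and Twsg1 hold or release the ligand outside the cell. In the developing forebrain, BMPs made by the dorsal midline, the choroid plexus and the meninges act on neural progenitors and influence their proliferation and the switch to glial fates.

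The libraries held 26077843 to 30608918 counts in NPC labelled KD, 26074094 to 29645091 in control NPC and 32560159 to 36713205 in cortex. Levels are given as CPM, the counts of a gene relative to the library total after TMM scaling within each system. Srsf10 itself stood at 211 ± 20.8 CPM in cortex labelled cKO, against 207 ± 11.5 CPM in its controls (SD, n = 3 each). In NPC labelled KD it stood at 226 ± 11.9 CPM, against 233 ± 13.7 CPM in theirs (SD, n = 3 each). It was not called in either system (edgeR adjusted p = 0.917 in cortex and 0.774 in NPC). In cortex, gene-level counts cannot tell whether the floxed part was lost. In NPC, the libraries labelled KD (239, 220.2 and 217 CPM) overlapped the controls (249, 227 and 223 CPM), though each was slightly below its same-numbered control. The counts thus showed no clear fall of Srsf10 RNA in NPC labelled KD. Directions therefore rest on the labels. The neuron and progenitor lists matched the labelled material: the 6 neuron markers summed to 7396 to 7762 CPM in control cortex and 1015 to 1125 CPM in control NPC, and the 6 progenitor markers to 1118 to 1296 CPM in control cortex and 9227 to 9566 CPM in control NPC. Glial lists were also higher in culture. The 6 astrocyte markers summed to 534 to 560 CPM in control cortex and 2055 to 2113 CPM in control NPC. The 6 oligodendrocyte lineage markers summed to 229 to 235 CPM in control cortex and 1084 to 1145 CPM in control NPC, mostly Olig2 (1051, 1077 and 1059 CPM). Single markers varied: among the controls, Tubb3 of neurons averaged 2298 ± 332 CPM in cortex against 12.5 ± 1.25 CPM in NPC, and Nes of progenitors 135 ± 4.23 CPM in cortex against 1936 ± 41.6 CPM in NPC, but Map2 of neurons averaged 1578 ± 171 CPM in cortex against 1049 ± 57.3 CPM in NPC, and the progenitor marker Hes5 16.6 ± 1.73 CPM in cortex against 3.99 ± 1.91 CPM in NPC (SD, n = 3 each).

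The 3′ untranslated regions (UTRs) of the 2 genes that stood low in NPC labelled KD hold short sequences that the other 8 do not. The hexamers ACCGAC and CCGACT had been singled out earlier in these same libraries among genes lower in NPC labelled KD, a set that includes Bmp7 and Twsg1, so finding them here describes that choice and is no test of it. They were searched on the sense strand of annotated 3′ UTRs of at least 50 bases in GENCODE M21, and they overlap each other in the letters CCGAC. Each match is printed in a window of 30 bases of the mRNA, 5′ to 3′, on mm10 and the minus strand, with the hexamer in capitals.
Bmp7, chr2:172868166-172868195: agaacaatgaggCCGACTtccttcagtctg
Twsg1, chr17:65923141-65923170: gcatttaacatgACCGACaacttatatatg
Twsg1, chr17:65924605-65924634: ccttctaagaagCCGACTtagaacatggct
The Bmp7 match begins at base 1954 of a 3′ UTR of 2125 bases, and the Twsg1 matches begin at bases 3127 and 1663 of one of 3220 bases. The UTRs without a match ranged from 339 bases in Bmp4 to 8529 bases in Bmpr2, and those of Bmpr1a (3810 bases) and Bmpr2 are longer than either UTR that holds one.

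For comparison, 1535 of the 12693 searched genes tested in NPC hold either hexamer (12.1%). Because the hexamers were singled out among genes lower in NPC labelled KD, the NPC shares and medians below describe that choice and test nothing. Among genes called lower in NPC labelled KD the share was 118 of 217 (54.4%), and among genes not called 1417 of 12426 (11.4%). It was 0 of 50 among genes called higher. In the fit with same-numbered pairs, described with the results, the share was 480 of 1783 (26.9%) among genes called lower, 122 of 1630 (7.48%) among genes called higher and 933 of 9280 (10.1%) among genes not called. Genes with a hexamer had a median log2 fold change of -0.09 in NPC and genes without one 0.014. In cortex the median was 0.012 for genes with a hexamer and 0.0045 for genes without one. Of the 42 other BMP pathway genes tested in NPC, only Chrd and Rgmb hold a hexamer, with NPC log2 fold changes of 0.67 and 0.05, neither of them low.

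**Figure D1:**
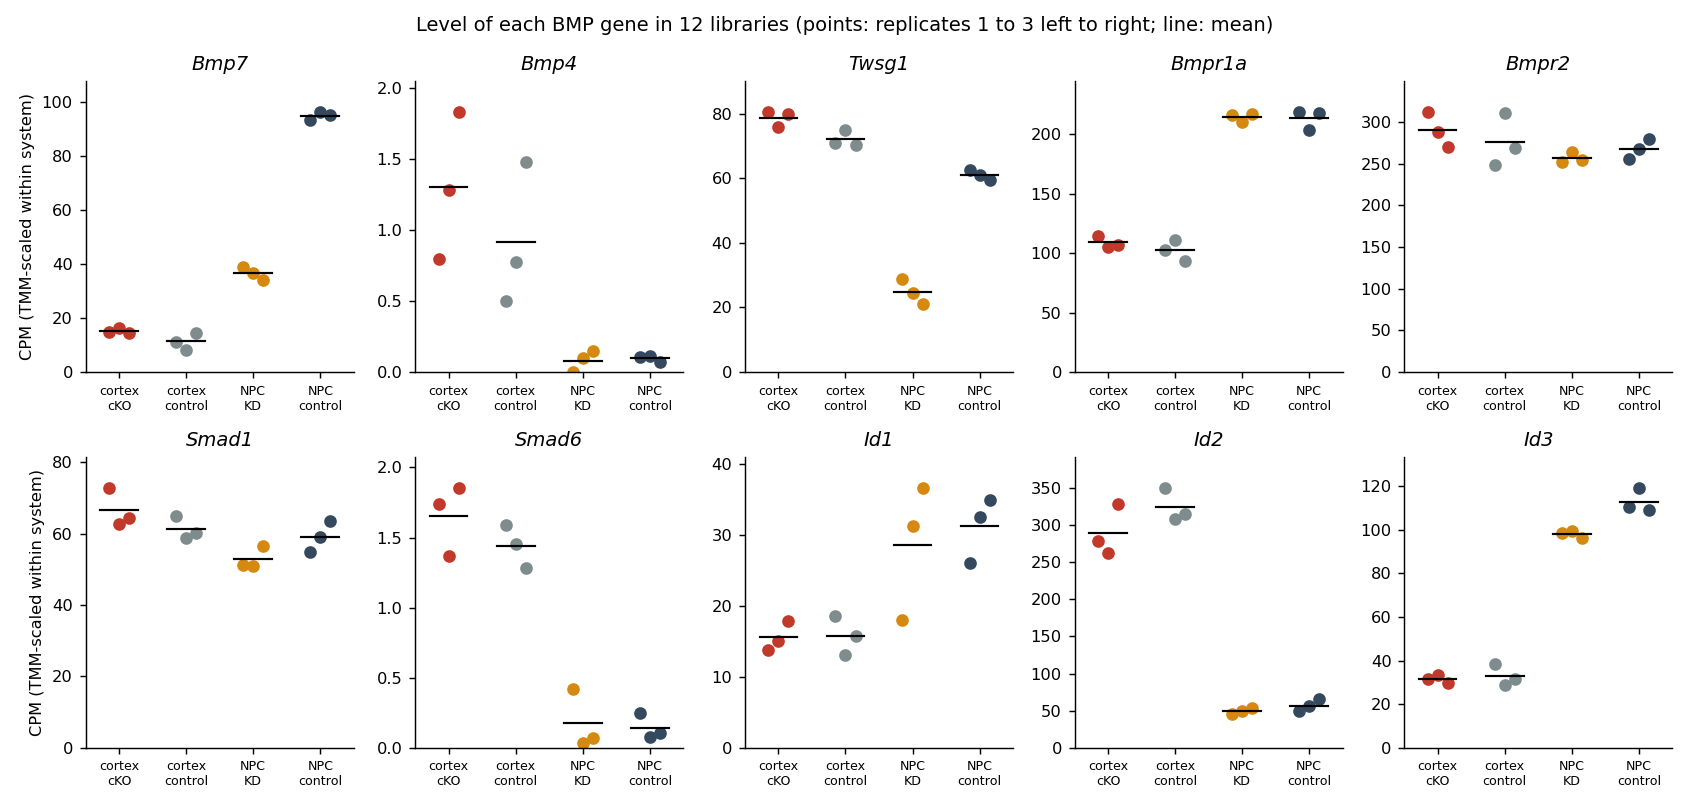
Level of each of the 10 genes in every library, in CPM on a linear axis from 0, with replicates 1 to 3 from left to right in each group and a line at the mean of 3. Bmp7 lies between 34.3 and 39.02 CPM in NPC labelled KD and between 93.6 and 96.3 CPM in control NPC, and Twsg1 shows the same separation, while the other 8 genes lie close together or overlap between the groups of a system.

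Bmp7, the ligand, stood at 0.386 of the control level in NPC labelled KD. The gene (ENSMUSG00000008999) lies on chromosome 2, 172868012 to 172940321, minus strand, mm10. Its level was 39.02, 36.9 and 34.3 CPM in the libraries labelled KD, against 93.6, 96.3 and 95.4 CPM in control NPC. Every library labelled KD was thus below every control, and both groups were narrow. On the log2 scale the fold change was -1.37, with an SE of 0.07 and a 95% interval of -1.54 to -1.21. Within same-numbered pairs the ratios were 0.417, 0.383 and 0.360.

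Twsg1 encodes a secreted protein that binds BMPs together with chordin and can either restrain or release the ligand. The gene (ENSMUSG00000024098) lies on chromosome 17, 65921972 to 65951226, minus strand. It stood at 28.9, 24.4 and 21.2 CPM in NPC labelled KD, against 62.5, 61.0 and 59.6 CPM in control NPC. Here too the groups were far apart, with a wider spread among the libraries labelled KD (15.5% of their mean, against 2.39% in controls). This was a log2 fold change of -1.30 with an SE of 0.11 (95% interval -1.56 to -1.03), a ratio of 0.407. The 3 pairs gave ratios of 0.462, 0.400 and 0.356.

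Among all 14258 genes tested in NPC, Bmp7 ranked 43rd and Twsg1 54th from the most negative fold change. Both were called lower in the fit across all genes, as 1.54% of tested genes were, which is the contrast that brought them to the head of the set. Leaving out any 1 of the 6 libraries gave log2 fold changes from -1.41 to -1.32 for Bmp7 and from -1.42 to -1.19 for Twsg1.

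Bmp4, another ligand of the dorsal midline, was close to undetected in culture. Its counts were 0, 3 and 4 in NPC labelled KD and 3, 3 and 2 in control NPC. At this depth no difference was detectable, and the gene did not pass the filter on low counts. Smad6, an inhibitory Smad that BMP signalling induces, was also filtered out in NPC, with 11, 1 and 2 counts in the libraries labelled KD and 7, 2 and 3 in controls.

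The receptors differed little between the NPC groups. Bmpr1a, a type I receptor kinase, stood at 216, 210.0 and 217 CPM in NPC labelled KD, against 219, 204 and 218 CPM in control NPC. The groups overlapped, and the log2 fold change of 0.0075 had an SE of 0.06 (95% interval -0.13 to 0.14). Bmpr2, a type II receptor kinase that binds BMPs, stood at 253, 264 and 255 CPM in NPC labelled KD, against 256, 268 and 280.2 CPM in control NPC. Its log2 fold change was -0.06 (SE 0.06, 95% interval -0.20 to 0.08). Its groups overlapped, though each pair was lower in the library labelled KD, by 0.016, 0.02 and 0.14 on the log2 scale.

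Smad1, a transducer that the receptors phosphorylate, had 51.2, 51.0 and 56.6 CPM in NPC labelled KD, against 54.8, 59.0 and 63.7 CPM in control NPC. The groups overlapped, each pair was lower in the library labelled KD, with a log2 fold change of -0.16 and an SE of 0.08 (95% interval -0.35 to 0.03). Being lower in every pair was shared by 26.6% of tested genes.

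The Id genes encode helix-loop-helix proteins without a DNA-binding region, which bind and block basic helix-loop-helix factors, and they are the best known targets of BMP signalling. Id3 stood at 98.6, 99.6 and 96.1 CPM in NPC labelled KD, against 110.5, 119 and 109 CPM in control NPC. All libraries labelled KD were below all controls, though the distance was small, with a log2 fold change of -0.20 (SE 0.06, 95% interval -0.35 to -0.06). Id2 had 46.1, 49.96 and 53.2 CPM in NPC labelled KD, against 48.9, 56.0 and 65.2 CPM in control NPC. Its groups overlapped but each pair was lower in the library labelled KD, by 0.09, 0.16 and 0.29 on the log2 scale, and the fold change was -0.19 (SE 0.11, 95% interval -0.46 to 0.08). Id1 had 17.9, 31.2 and 36.6 CPM in NPC labelled KD, against 26.1, 32.5 and 34.9 CPM in control NPC. Only pair 1 stood clearly apart for Id1, with a ratio of 0.687 against 0.959 and 1.05 in pairs 2 and 3, and without the KD library of replicate 1 the log2 fold change was 0.12 in place of -0.13.

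**Figure D2:**
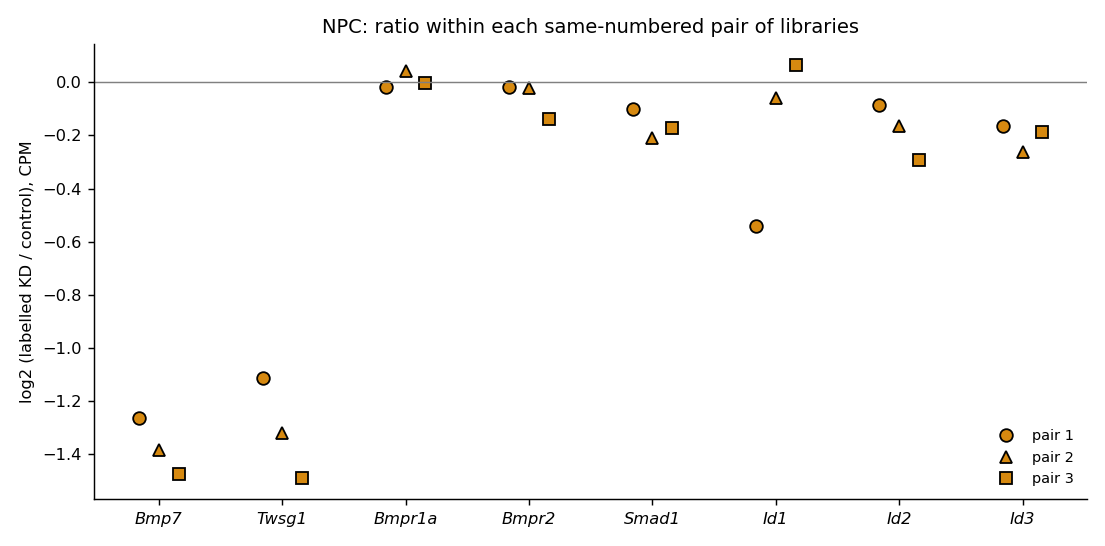
Log2 ratio of the CPM in the library labelled KD to that in the same-numbered control, for the 8 genes that passed the count filter in NPC; circles, triangles and squares are pairs 1, 2 and 3. Bmp7 and Twsg1 lie between -1.49 and -1.11 in every pair, Id2 and Id3 between -0.29 and -0.09, and Bmpr1a and Bmpr2 between -0.14 and 0.04, while Id1 is well below 0 in pair 1 alone.

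The same-numbered NPC libraries deviate together, so the fit with the replicate number as a block stands beside the one without. Without the block, 2 of the 8 tested members were called, both lower, beside 1.89% of all tested genes. With it, 4 were called, all lower: Bmp7, Twsg1, Id2 (log2 fold change -0.18, SE 0.06) and Id3 (-0.20, SE 0.05). The Id2 and Id3 calls were lost without replicate 2 and without replicate 3, and DESeq2 with the block did not call Id2. In that fit 24.7% of all 14258 tested genes were called, and 12.8% of the tested genes were called lower. The members were chosen on this contrast, so nothing is read from their count. The libraries labelled KD all lay below the controls for 3 of the 8 (Bmp7, Twsg1 and Id3), as for 12.8% of tested genes.

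In cortex none of the 10 members was called, where 0.171% of 15781 tested genes were. Most lay close to the controls, while Bmp7 and Bmp4 had log2 fold changes of 0.43 and 0.51. Bmp7 stood at 14.9, 16.2 and 14.6 CPM in cortex labelled cKO, against 11.2, 8.24 and 14.5 CPM in control cortex. The lowest cKO library and the highest control were nearly equal, so the groups do not overlap by a margin far smaller than the spread of the controls. This gave a log2 fold change of 0.43 with an SE of 0.18 (95% interval 0.02 to 0.83). Twsg1 stood at 80.5, 75.8 and 79.9 CPM in cortex labelled cKO, against 70.9, 75.1 and 70.3 CPM in control cortex, with a log2 fold change of 0.13 (SE 0.07, 95% interval -0.04 to 0.29). Here too the groups were barely apart, and 8.52% of all tested genes had every cKO library above every control.

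**Figure D3:**
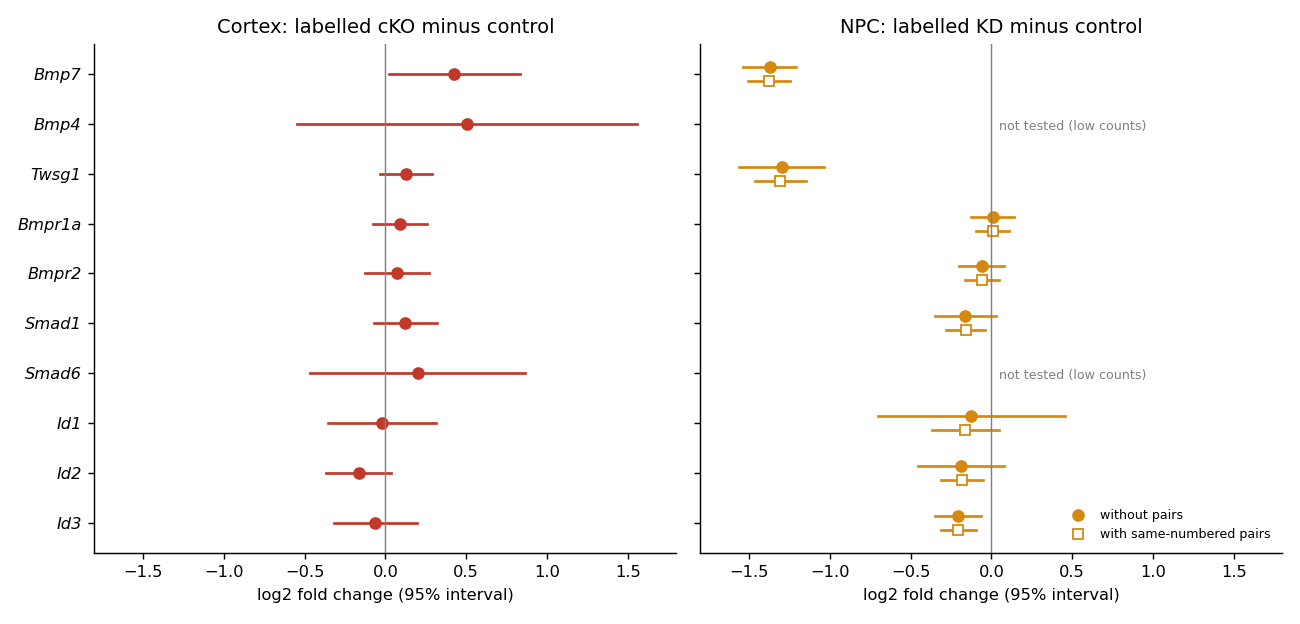
Log2 fold change with its 95% interval for each gene, cortex labelled cKO minus control on the left and NPC labelled KD minus control on the right; filled circles are fits without pairs and open squares fits with same-numbered pairs. In cortex every interval but that of Bmp7 crosses 0, and in NPC Bmp7 and Twsg1 lie below -1 while Bmpr1a, Bmpr2, Smad1, Id1, Id2 and Id3 lie between -0.20 and 0.0075.

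Bmp4 was low in cortex, at 0.794, 1.28 and 1.83 CPM in cortex labelled cKO and 0.502, 0.771 and 1.47 CPM in control cortex, and the groups overlapped. Smad6 was similarly low and overlapping, with 1.74, 1.37 and 1.85 CPM in cortex labelled cKO and 1.59, 1.45 and 1.28 CPM in control cortex. Id2 stood at 278, 262 and 329 CPM in cortex labelled cKO and 350, 308 and 315 CPM in control cortex. It had the most negative cortex fold change of the members, -0.16 (log2, SE 0.09, 95% interval -0.36 to 0.04), with overlapping groups. The log2 fold changes of Bmpr1a, Bmpr2, Smad1, Id1 and Id3 lay between -0.06 and 0.12, each with an interval across 0.

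Markers of other tissues varied among the cortex libraries. The 10 meningeal fibroblast markers summed to 200.2, 311 and 203 CPM in cortex labelled cKO, against 167, 36.9 and 286 CPM in control cortex; all 10 had positive fold changes with a median of 0.51, and none was called (edgeR, with 0 of them past an unadjusted p of 0.05). Control replicate 2, lowest in these markers, was also lowest in Bmp7. Without it the Bmp7 log2 fold change was 0.24 in place of 0.43, and without control replicate 3, the control highest in these markers, it was 0.64. The 8 choroid plexus markers summed to 111, 25.4 and 1133 CPM in cortex labelled cKO and 6.52, 1260.03 and 27.1 CPM in control cortex, with Kl at 0 counts in 5 of the 6 libraries. Without the libraries above 1000 CPM of Ttr (cKO replicate 3 and control replicate 2), the Bmp4 log2 fold change was 0.07 in place of 0.51, and without control replicate 3 it was 1.03. The 6 oligodendrocyte lineage markers summed to 194, 197 and 191 CPM in cortex labelled cKO, against 229.7, 228.7 and 235 CPM in control cortex. All 6 were negative, and Gpr17 fell (-0.79, SE 0.10, edgeR adjusted p = 0.0213). In bulk RNA a smaller number of cells of one type and less RNA per cell cannot be told apart, and the part of these tissues in the values was not tested.

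**Figure D4:**
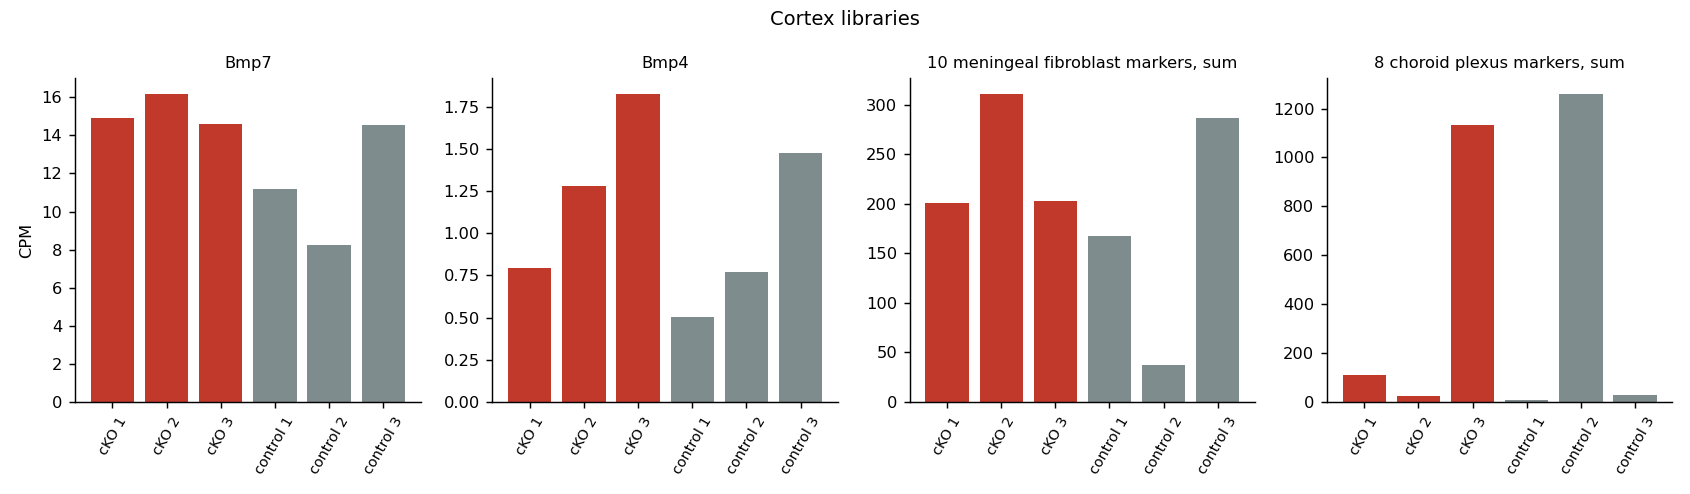
CPM of Bmp7 and Bmp4 and summed CPM of 10 meningeal fibroblast and 8 choroid plexus markers in each cortex library, as bars from 0, with the 3 cKO libraries left of the 3 controls. Control 2 is lowest in Bmp7 (8.24 CPM) and in the meningeal sum (36.9 CPM), and the choroid plexus sum is above 1000 CPM in cKO 3 and control 2 alone.

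In NPC the corresponding sums were low for meningeal markers, at 18.7, 53.8 and 20.5 CPM in libraries labelled KD and 20.7, 48.4 and 21.1 CPM in controls, with Foxd1 at 0 in all 6. Choroid plexus markers summed to 20.5, 52.2 and 21.4 CPM in libraries labelled KD and 11.3, 24.7 and 11.9 CPM in controls, with Ttr below 1 CPM in each. Most of that sum was Otx2, at 19.3, 50.4 and 19.6 CPM in libraries labelled KD and 10.3, 22.9 and 10.1 CPM in controls, which was called higher with the block (1.01, SE 0.08). Astrocyte markers were higher in sum, at 2449, 2367 and 2328 CPM in NPC labelled KD against 2113, 2055 and 2079.96 CPM in control NPC. Of those 6 genes edgeR called 0 without the block (3 at an unadjusted p under 0.05), and 5 were positive. With the block Aqp4, Aldh1l1, Gja1 and S100b were called higher and Gfap lower. The 7 markers of Cajal-Retzius cells and the cortical hem, the latter a source of BMPs at the dorsal midline, summed to 4.63, 6.81 and 6.196 CPM in NPC labelled KD against 15.03, 15.001 and 19.6 CPM in control NPC. Most of that sum was Reln, at 3.06, 5.35 and 4.12 CPM in libraries labelled KD and 12.5, 12.9 and 17.6 CPM in controls. Of the 3 tested, all were negative and Reln was called (-1.78, edgeR adjusted p = 0.0145 without the block), and Wnt3a was at 0 in all 6 libraries. The 10 endothelial and pericyte markers summed to 11.6, 11.7 and 13.1 CPM in NPC labelled KD against 20.6, 17.9 and 22.2 CPM in control NPC, where Flt1 alone of 5 tested was called (-1.15, edgeR adjusted p = 0.0387 without the block). Flt1 made up most of the control sums, at 15.5, 11.5 and 16.8 CPM, against 6.70, 5.28 and 7.80 CPM in libraries labelled KD. With the block, Slc6a13 and Ogn of the meningeal list were called higher and Foxc1 lower. The part of these cell types in the Bmp7, Twsg1 and Id values was not tested.

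The difference between the systems was taken from 1 fit of all 12 libraries, without the replicate block. The systems differ both in material, tissue or culture, and in the way Srsf10 was targeted, Cre or lentivirus. These cannot be told apart here. The NPC fold change minus the cortex fold change was -1.78 (log2, SE 0.21, 95% interval -2.24 to -1.33) for Bmp7 and -1.41 (SE 0.13, 95% interval -1.70 to -1.13) for Twsg1. Bmpr1a, Bmpr2, Smad1, Id1, Id2 and Id3 lay between -0.27 (Smad1) and -0.01 (Id2). Bmp4 (-0.70, SE 1.05) and Smad6 (0.05, SE 0.83) had failed the NPC count filter and entered this fit through their cortex counts. Their values rest on few NPC counts and are limited by depth. With them included, 2 of the 10 were called, where 1.46% of 16569 tested genes were.

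Levels of different genes were compared only per kilobase of annotated exon. In control NPC the order was Id3 (63.1 ± 3.04 CPM per kilobase), Bmpr1a (33.6 ± 1.31), Id1 (26.9 ± 3.95), Bmp7 (23.7 ± 0.347), Id2 (23.3 ± 3.35), Bmpr2 (14.9 ± 0.684), Twsg1 (11.8 ± 0.283) and Smad1 (9.44 ± 0.709), with Smad6 and Bmp4 below 0.1 (SD, n = 3). Id1, Bmp7 and Id2 do not differ beyond their spread. In NPC labelled KD, Bmp7 stood at 9.14 ± 0.589 CPM per kilobase, between Bmpr2 (14.3 ± 0.333) and Smad1 (8.45 ± 0.505), and Twsg1 at 4.82 ± 0.747, below Smad1. In cortex labelled cKO and control cortex Id2 led with 119 ± 14.2 and 133 ± 9.22 CPM per kilobase, and Bmp7 stood at 3.79 ± 0.208 and 2.82 ± 0.785 (n = 3 each). Gene lengths are unions of annotated exons, which overstate the length of genes that use a short isoform.

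The rest of the pathway was read from 66 listed ligands, extracellular modulators, receptors, transducers and targets, 65 of which have a row under the listed symbol. In cortex 0 of 55 tested genes were called by edgeR (8 at an unadjusted p under 0.05), with a median log2 fold change of 0.09 beside 0.0034 over all tested genes, and DESeq2 called 1, Kcp. In NPC without the block 0 of 42 were called (8 at an unadjusted p under 0.05), with a median of -0.04 beside 0.005 over all genes, and DESeq2 called Fst and Hey1. With the block 13 of 42 were called (31.0%), 4 higher and 9 lower, beside 24.7% of all tested genes (11.9% higher and 12.8% lower).

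Of 15 extracellular modulators tested, 4 rose and 2 fell in NPC labelled KD with the block. Fst, which encodes follistatin, a binder of activins and BMPs, stood at 6.78, 8.20 and 8.46 CPM in NPC labelled KD, against 5.12, 4.16 and 3.66 CPM in control NPC. The groups did not overlap, and Fst rose with the block (log2 fold change 0.86, SE 0.16, edgeR adjusted p = 0.00149), while without it the adjusted p was 0.0616 and with the block but without replicate 3 it was 0.0603. Chrd, which encodes chordin, averaged 3.57 ± 0.973 CPM in NPC labelled KD and 2.25 ± 0.530 CPM in control NPC (n = 3 each) and rose with the block alone (0.66, SE 0.21, edgeR adjusted p = 0.0371, 0.267 without it), but not by DESeq2 with the block (adjusted p = 0.134) or without replicate 3 (edgeR adjusted p = 0.26). Fstl1, a follistatin-like secreted glycoprotein, rose by 0.40 (SE 0.05, edgeR adjusted p = 0.000148 with the block, 0.229 without it). The low-count protease gene Tll2 also rose with the block (0.79, SE 0.27, edgeR adjusted p = 0.0456), but not by DESeq2 (adjusted p = 0.208) or without replicate 2 or replicate 3. Nog, which encodes noggin, averaged 1.03 ± 0.054 CPM in NPC labelled KD and 0.664 ± 0.266 CPM in control NPC (SD, n = 3 each) and was not called (0.67 with the block, edgeR adjusted p = 0.192).

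The falls with the block were small apart from Hey1. Bmp1, a protease that cleaves chordin, had -0.27 (log2, SE 0.05, edgeR adjusted p = 0.00137), and Crim1, a membrane protein with chordin-like repeats, -0.25 (SE 0.08, adjusted p = 0.035), a call lost without replicate 1 or replicate 3. Neo1, a receptor of netrins and of the RGM co-receptors, had -0.20 (SE 0.05, adjusted p = 0.0094), lost without replicate 2 or replicate 3. Of 12 transducers 5 fell: Smad5 (-0.19), Smad4 (-0.18), the ubiquitin ligase Smurf1 (-0.20) and the Smad corepressors Ski (-0.16) and Skil (-0.18), with adjusted p from 0.0154 to 0.0367, in a fit that called 12.8% of all tested genes lower. Without replicate 3 none of the 5 was called (edgeR adjusted p 0.12 to 0.205), and without replicate 2 only Smurf1 was. DESeq2 with the block did not call Smad4, Ski or Skil (adjusted p 0.0706 to 0.132). Hey1, a transcriptional repressor known as a target of both Notch and BMP signals, stood at 56.9, 33.9 and 49.5 CPM in NPC labelled KD, against 73.7, 59.2 and 78.3 CPM in control NPC (-0.61, SE 0.07, edgeR adjusted p = 6.65e-05 with the block, 0.175 without it).

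**Figure D5:**
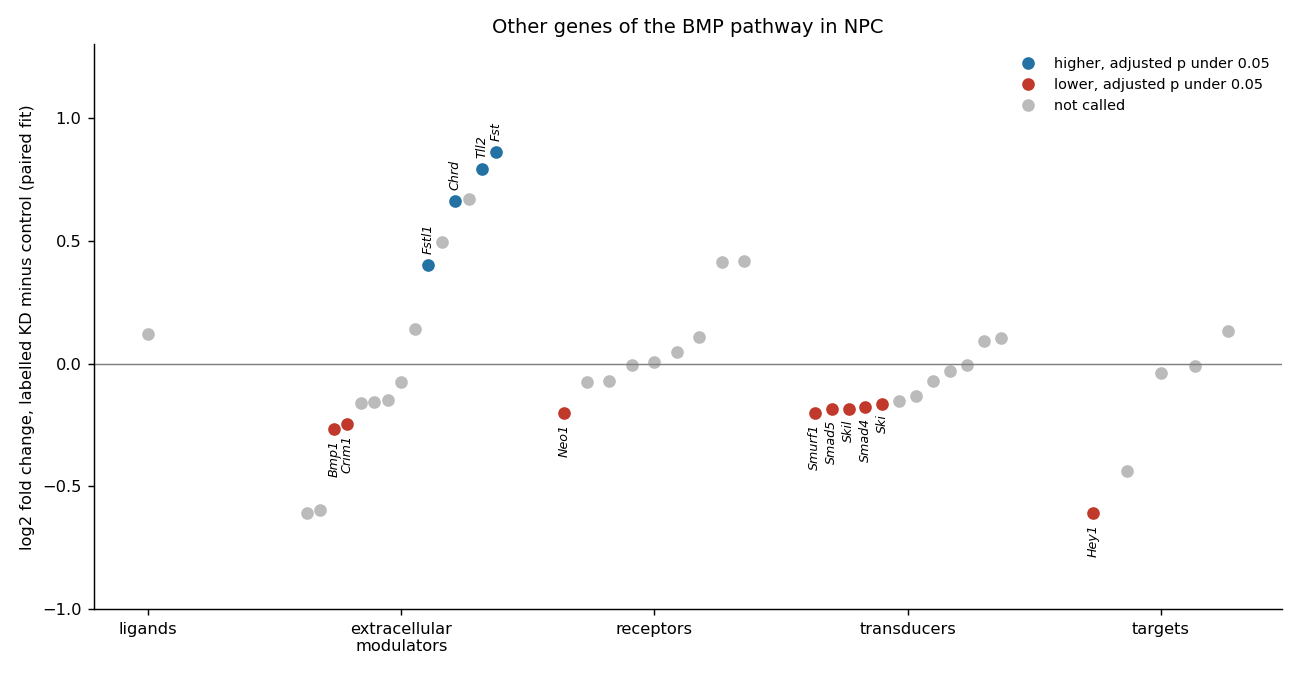
Log2 fold change, NPC labelled KD minus control in the fit with same-numbered pairs, for the 42 other BMP pathway genes tested, sorted within each class; blue genes were called higher, red lower and grey not called at an adjusted p under 0.05. The 4 genes called higher are all extracellular modulators, and the 9 called lower include 5 transducers.

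Apart from Neo1, no other ligand or receptor of the lists was called by edgeR in either system. Bmp2, the only other ligand tested in NPC, averaged 0.395 ± 0.144 CPM in NPC labelled KD and 0.359 ± 0.032 CPM in control NPC, and Bmp3 and Bmp5 had at most 11 counts in any NPC library. In cortex Bmp5 had 6.32, 6.93 and 4.96 CPM in cortex labelled cKO and 3.21, 1.23 and 4.67 CPM in control cortex (0.99, SE 0.38, edgeR adjusted p = 0.366), again lowest in control replicate 2, and Bmp3 had 0.22 (SE 0.13, adjusted p = 0.575). The receptors Bmpr1b (0.11), Acvr1 (-0.07) and Acvr2a (0.0073) and the targets Id4 (-0.0032) and Msx1 (0.012) had NPC log2 fold changes near 0 without the block, none called. Smad7, the other inhibitory Smad, had -0.03 (SE 0.22), and Msx2 did not pass the filter.

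The genes whose levels ran most like Bmp7 over the 12 libraries, after the mean of each system was removed, were Klhl42 (Pearson r = 0.96), St3gal2 (0.94), Nup50 (0.94), Plekha3 (0.93) and Clstn1 (0.93), out of 9528 genes compared. For Twsg1 they included Zfp422 (0.99), Atmin (0.98), Tdg (0.98) and Plekha3 (0.97). Bmp7 and Twsg1 themselves correlated at 0.91. Both were chosen as low in NPC labelled KD, so this correlation was set in part by that choice and is no test. All of these values come from the same 12 libraries and describe them only. The genes named here had negative NPC log2 fold changes, from -1.63 (Zfp422) to -0.26 (St3gal2), and apart from Plekha3 and St3gal2 each holds one of the hexamers ACCGAC or CCGACT in its 3′ UTR. Of all searched genes tested in NPC, 12.1% hold either hexamer. The hexamers were singled out among genes low in NPC labelled KD, and these genes run low there too, so the matches are no test.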

How the data were processed

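Total RNA of 12 mouse libraries was sequenced. Per the submitters' processing notes, reads were aligned with HISAT2 to mm10 (the sources used here give no version, counting program, annotation or strand setting). The deposited values are raw, whole-number counts for each gene and library. Genes that overlap an annotated neighbour (Bmp4, Bmpr1a and Bmpr2 here) may therefore share reads with it. Counts were scaled by TMM in edgeR 4.0.16 (R 4.3.3), filtered by filterByExpr in each comparison, and tested with edgeR's quasi-likelihood test with Benjamini-Hochberg adjustment over all tested genes (threshold 0.05). Cortex and NPC were fitted separately (6 libraries each), and an interaction contrast in 1 fit of 12 compared them. Tested on simulated data, the fits recovered nearly all planted changes of the larger sizes and fewer of the smallest. Those data gave all genes the same dispersion and held planted changes only in well expressed genes. They do not measure recovery for low or more variable genes.

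The members and lists were chosen with earlier results of these data known. Other pathway genes were named if called in any fit (at most 6 per list with the block) or if among the first 3 of their list; Kcp, Rgmb and the marker genes were named after their values were seen. Of the genes most like Bmp7 or Twsg1 (the 5 of highest correlation each), 1 is not reported here. Same-numbered libraries were checked as pairs: residual correlations were 0.60, 0.59 and 0.56 in NPC and 0.01, -0.20 and -0.03 in cortex, so the block was used for NPC. Replicates of a group differed by more than counting noise. Gene positions, exon lengths and UTRs came from GENCODE M21 (mm10), which held 34065 of 34102 identifiers, and promoter sequences from RefSeq (GRCm38.p6). Alternatives were DESeq2 1.42.0, RLE scaling, testing without the count filter, 1 fit of 12, the replicate block, a sex term (male above 10 CPM of Ddx3y), leaving out libraries above 1000 CPM of Ttr, and leaving out each library or pair. Figures were drawn with matplotlib 3.10.9.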

Additional observations from a re-analysis of the deposited data

Results flagged for a closer look

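Bmp7 and Twsg1 are listed because their fold changes in the 2 systems differed in the interaction contrast over all 12 libraries. The NPC fold change minus the cortex fold change was -1.78 (log2) for Bmp7, which stood at 36.7 ± 2.37 CPM in NPC labelled KD and 95.1 ± 1.39 CPM in control NPC, and at 15.2 ± 0.836 CPM in cortex labelled cKO and 11.3 ± 3.15 CPM in control cortex (SD, n = 3 each). For Twsg1 it was -1.41, with 24.8 ± 3.85 CPM in NPC labelled KD and 61.0 ± 1.46 CPM in control NPC, and 78.7 ± 2.57 CPM in cortex labelled cKO and 72.1 ± 2.61 CPM in control cortex. Both genes were chosen with these values known, so the contrast describes them and adds no independent evidence. Material and the way Srsf10 was targeted differ together between the systems and cannot be told apart.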

How the results depend on the processing

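Under every alternative run, Bmp7 and Twsg1 were negative in NPC (from -1.43 to -1.32 and from -1.42 to -1.19, log2, over both NPC fits) and positive in cortex. The number of called genes moved more. In cortex the count was 27, against 156 with no count filter, 338 by DESeq2, 49 in 1 fit of 12 libraries, 12 with sex in the model, 1 with the replicate block and 0 to 28 when 1 library was left out (without cKO replicate 1 edgeR called 0 genes, though 1096 had an unadjusted p under 0.05; it called 1 without cKO replicate 3 and 16 without cKO replicate 2). In NPC it was 270, against 1012 by DESeq2, 654 in 1 fit of 12, 3522 with the replicate block and 47 to 304 when 1 library was left out (47, 55 and 95 without control replicates 3, 2 and 1, and 69 and 176 without KD replicates 2 and 3). With the block, leaving out a pair gave 1636 to 4376 (1636 without replicate 3 and 2170 without replicate 2), and the interaction count was 242, or 836 with the replicate block in NPC only. Counts over the other pathway genes depended on the fit: in cortex 0, or 1 by DESeq2; in NPC 0, or 1 without the filter, 2 by DESeq2, 1 in 1 fit of 12 and 13 with the replicate block; and with the block 13, or 8 by DESeq2 and 3 to 13 when a pair was left out. Without replicate 3, Fstl1, Bmp1 and Hey1 remained called of the 13, and without replicate 2 or replicate 3, Id2 and Id3 were no longer called. DESeq2 with the block also did not call Id2. The causes were not tested. Genes under about 1 CPM (Bmp4 and Smad6 in NPC, Nog) are limited by depth.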

Other observations

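RefSeq promoter windows of 300 bases were in the table for 8 of the 10 members, all but Bmp7 and Id1. The Smad-binding letters GGCGCC (a palindrome) stand in those of Bmpr1a, Bmpr2 and Id2, and in 11.9% of all 32851 windows. GTCTG, searched on both strands, stands in those of Twsg1 and Id3, and in 49.6% of all windows. Neither motif contains the other. A match is a description of the sequence and not a binding site.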
